A study of Mus musculus with 6 samples.

Results

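The growth hormone and insulin-like growth factor (IGF) axis was described here through 9 genes, Ghr, Igf1, Igf1r, Igfbp2, Igfbp3, Igfbp4, Igfbp5, Igfbp6 and Igfbp7, which were taken by gene name from the 54532 genes of the deposited count table. All 9 were found once and all 9 had enough counts to be tested. The RNA was bulk RNA of eWAT, white fat from around the epididymis, sequenced from 3 cachectic and 3 control C57BL/6 mice. The cachectic mice carried a subcutaneous Lewis lung carcinoma (LLC), a tumour grown from injected cells of a mouse lung cancer line, and the study's methods define cachexia as a loss of more than 20% of body weight. The control mice carried no tumour. Per the methods the mice were male and between 6 and 10 weeks of age, and the fat was taken on day 21 in both groups. The labels number the samples of each group without stating that each is a separate animal, so the p-values measure the spread between these samples.

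Growth hormone binds its receptor, GHR, which signals through the kinase JAK2 and the transcription factor STAT5 and in fat and liver raises the production of IGF1. IGF1 acts on the receptor IGF1R. In tissue fluid and blood most IGF is held by IGF-binding proteins (IGFBPs), which prolong its life or keep it from the receptor, and IGFBP4 and IGFBP5 release it when proteases such as PAPP-A or HTRA1 cut them. Adipose tissue makes IGF1 and several IGFBPs locally, in adipocytes, in progenitor cells and in vessels.

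Igfbp3 and Igfbp5 moved in opposite directions in the cachectic samples, and the genomic sequence before their start is shown for that reason. The sequences are those of RefSeq (GRCm38.p6), read 5′ to 3′ on the strand of the gene and ending before the leading exon base annotated in GENCODE M21. The Igfbp3 stretch lies at chr11:7213924-7214173 on the minus strand and the Igfbp5 stretch at chr1:72874885-72875115 on the minus strand. For Igfbp3 that exon begins at the RefSeq start, and for Igfbp5 it begins 19 bases before the RefSeq start. Capitals mark matches of the letters TATNNA on either strand that begin 40 to 20 bases before the end of each stretch.
Igfbp3: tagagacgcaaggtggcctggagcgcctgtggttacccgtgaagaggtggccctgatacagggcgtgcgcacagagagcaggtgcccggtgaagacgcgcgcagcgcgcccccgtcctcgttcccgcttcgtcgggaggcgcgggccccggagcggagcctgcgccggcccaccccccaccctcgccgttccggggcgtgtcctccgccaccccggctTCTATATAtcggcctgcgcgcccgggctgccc
Igfbp5: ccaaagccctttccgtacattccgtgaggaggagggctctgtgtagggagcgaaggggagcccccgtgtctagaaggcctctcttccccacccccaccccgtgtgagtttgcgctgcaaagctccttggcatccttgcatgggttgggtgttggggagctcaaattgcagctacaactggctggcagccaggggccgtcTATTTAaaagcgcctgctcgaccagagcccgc
The Igfbp3 stretch of 250 bases had 73.2% G and C, and the Igfbp5 stretch of 231 bases had 60.6%. Both stretches hold such a match, the leading one beginning 32 bases before the end in each. The share of all genes with a match in that range, counted from the annotated exon, was not computed.

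All 9 genes had a RefSeq promoter window running from 250 bases before to 50 bases after a start, 11 windows in all. The STAT motif TTCNNNGAA, which reads the same on both strands, was in 0 of the 11 windows and in 8.3% of the 32851 windows of all genes. Among 25 further genes of ligands, receptors, IGF binding and signaling that had a window, it was found for 5, Cish, Socs3, Igfals, Akt2 and Ghrl. These 25 genes had 43 windows, of which 6 held the motif. The letters TATAAA, on either strand, were in 3 of the 11 windows (Igfbp4, Ghr and Igfbp6) and in 13.6% of all windows. The looser TATNNA, counted within 40 to 20 bases before the RefSeq start alone, was in 4 of the 11 (Igf1, Igfbp3, Igfbp4 and Igfbp6) and in 9.87% of all, and any stretch matching both sets of letters was counted in both. The Igfbp5 match printed above begins 51 bases before the RefSeq start, outside that range, and so was not among the 4. The STAT motif was set with the other lists, while both TATA motifs were chosen after the windows had been looked at. A match is a description of letters and no site was tested.

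The total count per sample lay between 14928766 and 18855546, and every cachectic sample had fewer counts than every control sample. Levels are given as CPM, counts relative to a library size corrected by the TMM factors of edgeR, and a gene was called higher or lower at an adjusted p under 0.05 in edgeR's quasi-likelihood test with Benjamini-Hochberg adjustment over the 16003 genes tested. Log2 fold changes are those of cachexia over control. With 3 samples in each group the smallest p of a two-sided exact permutation test is 0.1. In a principal component analysis, control replicate 1 stood apart from the other controls on the component after the leading one (47.2 against -28.8 and -23.3). In bulk tissue, fewer cells of a type and less RNA per cell cannot be told apart.

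Of the 9 genes, 1 was called higher (Igfbp3), 2 were called lower (Igf1 and Igfbp5) and 6 were not called. Over all genes tested, 9.0% were called higher and 8.63% lower. The same 3 genes were the ones whose groups did not overlap, against 20.4% of all tested genes with cachectic samples all higher and 20.1% with cachectic samples all lower. The median log2 fold change of the 9 genes was -0.12, and that of all tested genes was -0.00299.

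**Figure D1:**
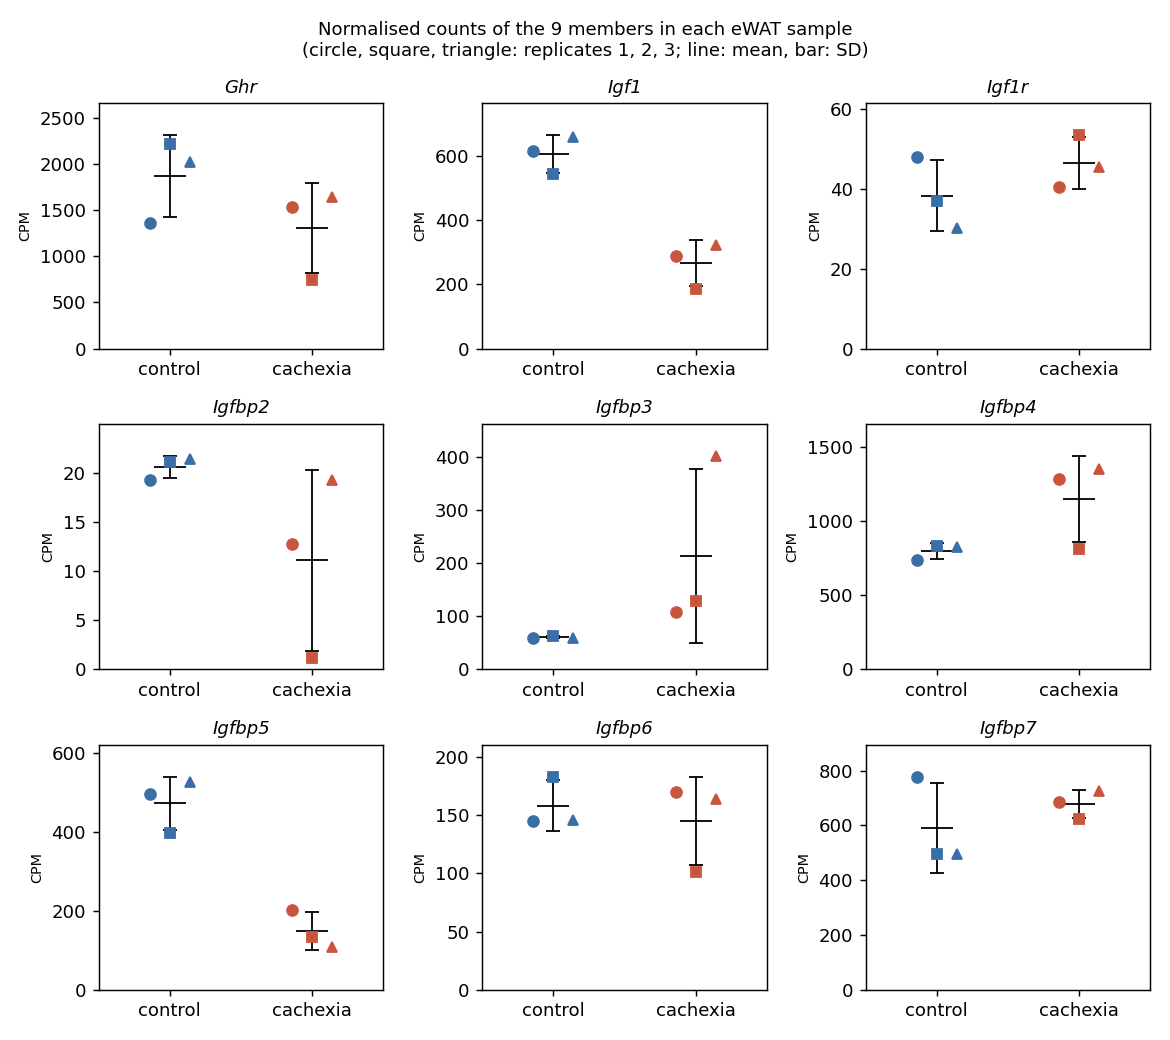
Normalised counts (CPM, linear axes from 0) of the 9 genes in each of the 6 samples, with circles, squares and triangles for replicates 1, 2 and 3, a line for the group mean and a bar for the SD. The cachexia samples all lie below the controls for Igf1 and Igfbp5 and above them for Igfbp3, and the groups overlap for the other genes.

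The ligand of the axis, Igf1 (chromosome 10, 87858265 to 87937042, plus strand), was lower in the cachectic fat. Replicates 1, 2 and 3 are given in that order throughout. The controls had 616, 543 and 659 CPM of Igf1, and the cachectic samples had 289, 186 and 324 CPM. The highest cachectic sample was below the lowest control. The control mean was 606 ± 58.6 CPM (SD, n = 3) and the cachexia mean 266 ± 71.6 CPM (SD, n = 3). This gave a log2 fold change of -1.19 (SE 0.23), with an adjusted p of 0.0137 in edgeR's test. Without control replicate 3 it was -1.13 with an adjusted p of 0.0624 in edgeR's test. Igf1 overlaps the antisense gene Igf1os, which had at most 54 counts in any sample against at least 3040 for Igf1, and the use of strand in counting was not stated.

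The growth hormone receptor, Ghr (chromosome 15, 3317760 to 3583492, minus strand), was not called. Its level was 1367, 2216 and 2024 CPM in the controls and 1536, 747 and 1646 CPM in the cachectic samples. Cachexia replicate 2 was the lowest sample and the other cachectic samples lay within the range of the controls. The log2 fold change was -0.51 (SE 0.34, 95% interval -1.29 to 0.27), with an adjusted p of 0.322 in edgeR's test. The interval holds both no change and a fall by more than a factor of 2.

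The IGF1 receptor, Igf1r (chromosome 7, 67952827 to 68233668, plus strand), was not called either. The controls had 48.0, 37.1 and 30.1 CPM and the cachectic samples had 40.5, 53.5 and 45.5 CPM, so the groups overlapped. On the log2 scale the change was 0.28 (SE 0.19, 95% interval -0.17 to 0.72), with an adjusted p of 0.353 in edgeR's test.

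Among the binding proteins, Igfbp3 (chromosome 11, 7206086 to 7213923, minus strand), which encodes the main carrier of IGFs in blood, was higher in the cachectic fat. It was at 59.6, 62.0 and 59.4 CPM in the controls and at 109, 128 and 403 CPM in cachexia replicates 1, 2 and 3. The controls were nearly level with each other, and cachexia replicate 3 was far above the other cachectic samples. The fitted log2 fold change was 1.82 (SE 0.47, 95% interval 0.74 to 2.91), with an adjusted p of 0.0345 in edgeR's test. Without cachexia replicate 3 the log2 fold change was 0.98, an adjusted p of 0.0081 in edgeR's test. Without control replicate 1, 2 or 3 it was 1.81, 1.84 or 1.81, and the adjusted p of 0.0797, 0.0991 or 0.115 in edgeR's test did not pass.

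Igfbp5 (chromosome 1, 72857932 to 72874884, minus strand), which encodes a binding protein that also attaches to the extracellular matrix, was lower. The controls had 494, 395 and 525 CPM and the cachectic samples had 201, 134 and 108 CPM. Every cachectic sample was below every control. The log2 fold change was -1.67 (SE 0.25, 95% interval -2.26 to -1.09), with an adjusted p of 0.00608 in edgeR's test. Its call held in all 17 other settings tried, with log2 fold changes from -1.96 to -1.49.

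Igfbp2 (chromosome 1, 72824503 to 72852474, plus strand) is the neighbour of Igfbp5, whose annotated end is 5457 bases away. It was at 19.3, 21.1 and 21.4 CPM in the controls and at 12.7, 1.16 and 19.3 CPM in the cachectic samples. Cachexia replicate 2 had 19 counts of Igfbp2, against 219 and 295 in the other cachectic samples and 369 to 385 in the controls. Cachexia replicate 3 lay just above control replicate 1, so the groups overlapped. On the log2 scale the change was -0.90 (SE 0.71, 95% interval -2.53 to 0.74), with an adjusted p of 0.41 in edgeR's test. It was -0.36 without cachexia replicate 2, -1.56 without cachexia replicate 3 and -1.64 with limma-voom, and it was not called in any of the 17 other settings.

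Igfbp4 (chromosome 11, 99041244 to 99054392, plus strand), which encodes a binding protein that PAPP-A cuts, had 734, 830 and 823 CPM in the controls and 1280, 812 and 1347 CPM in the cachectic samples. Cachexia replicates 1 and 3 were above every control, and cachexia replicate 2 lay among them. The fitted log2 fold change was 0.53 (SE 0.23, 95% interval -0.00440 to 1.06), with an adjusted p of 0.148 in edgeR's test. Without cachexia replicate 2 it was 0.73 with an adjusted p of 0.0441 in edgeR's test.

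Igfbp6 (chromosome 15, 102144362 to 102149511, plus strand), which encodes a binding protein with a preference for IGF2, had 146, 183 and 146 CPM in the controls and 170, 101 and 164 CPM in the cachectic samples. The log2 fold change was -0.12 (SE 0.22, 95% interval -0.63 to 0.38), and without cachexia replicate 2 it was 0.083, so its sign rested on that sample. Igfbp7 (chromosome 5, 77349240 to 77408041, minus strand), which encodes a vessel-associated protein with low affinity for IGFs, had 779, 495 and 497 CPM in the controls and 686, 625 and 727 CPM in the cachectic samples. It had a log2 fold change of 0.20 (SE 0.22, 95% interval -0.31 to 0.71), and control replicate 1 was its highest sample. It overlaps Polr2b on the other strand, with at most 1616 counts against at least 8660 for Igfbp7, and Gm34648, with at most 2.

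Of the 9 genes, 4 had their lowest value in cachexia replicate 2 (Ghr, Igf1, Igfbp2 and Igfbp6) and 2 had their highest value in cachexia replicate 3 (Igfbp3 and Igfbp4). Cachexia replicate 1 was the lowest or highest sample for 0 of them.

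**Figure D2:**
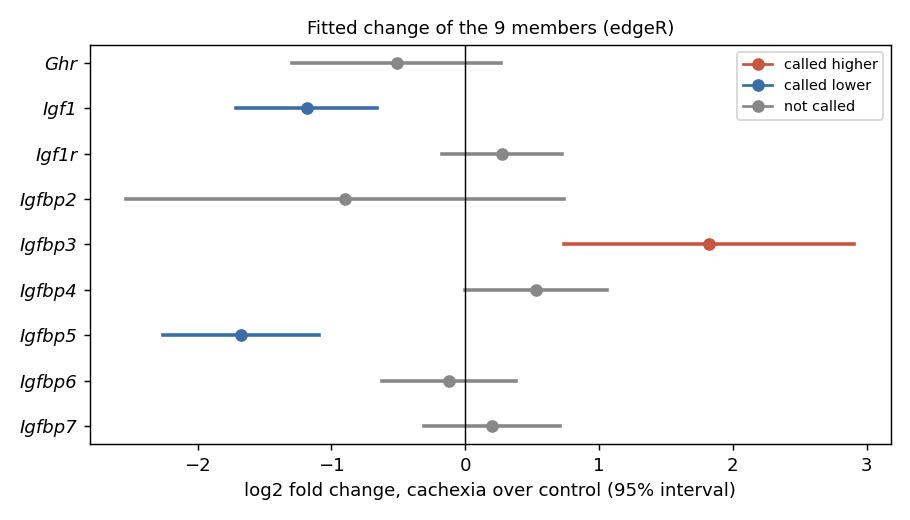
Fitted log2 fold change of cachexia over control for the 9 genes, with points for the estimate and lines for the 95% interval. Igfbp3 (1.82) lies to the right of 0 and Igf1 (-1.19) and Igfbp5 (-1.67) to the left, and the intervals of the other genes cross 0.

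Levels of different genes were compared per gene length, with the FPKM values deposited by the authors. In the controls the order of the means was Igfbp7 (483 FPKM), Ghr (204), Igfbp4 (178), Igfbp6 (141), Igfbp5 (77.7), Igf1 (60.6), Igfbp3 (19.1), Igfbp2 (11.0) and Igf1r (2.26). Neighbours in that order whose samples overlapped were Ghr with Igfbp4 and Igfbp5 with Igf1. In the cachectic samples the order was Igfbp7 (550 FPKM), Igfbp4 (254), Ghr (142), Igfbp6 (128), Igfbp3 (66.7), Igf1 (26.3), Igfbp5 (24.1), Igfbp2 (5.87) and Igf1r (2.71), and the overlapping neighbours were Ghr with Igfbp6, Igfbp6 with Igfbp3, Igf1 with Igfbp5 and Igfbp2 with Igf1r. Igfbp7 was the highest and Igf1r the lowest by the mean in both groups. Over all 6 samples Igfbp7 ranked 52 and Igf1r ranked 10369 by mean FPKM among the 29764 genes with any count.

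**Figure D3:**
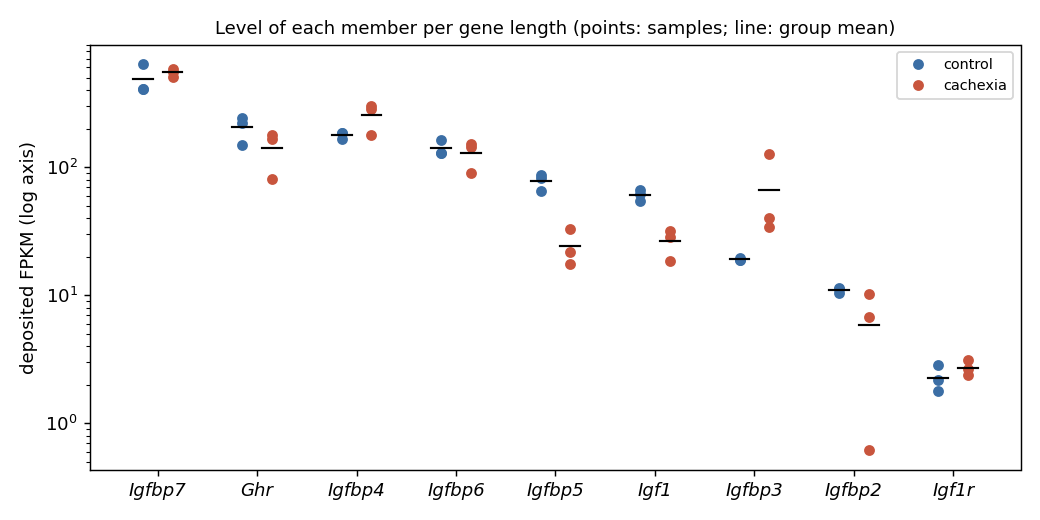
Deposited FPKM of each gene (log axis) in each sample, with points for samples and short lines for group means, ordered by the control mean. Igfbp3 rises from 19.1 to 66.7 FPKM on average while Igf1 (60.6 to 26.3) and Igfbp5 (77.7 to 24.1) drop below it.

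The summed FPKM of the 6 IGFBP genes overlapped between the groups, at 1045, 849 and 838 in the controls and 1066, 837 and 1185 in the cachectic samples. Its make-up differed. Igfbp5 made up 7.66% to 10.3% of the sum in the controls and 1.48% to 3.08% in the cachectic samples, and Igfbp3 made up 1.81% to 2.30% and 3.20% to 10.6%. The ratio of Igfbp5 to Igfbp3 FPKM was 4.33, 3.32 and 4.61 in the controls and 0.964, 0.545 and 0.140 in the cachectic samples. Igfbp5 was thus the more abundant of the pair in every control and the less abundant in every cachectic sample. Igf1 FPKM was 5.91%, 6.38% and 7.86% of the IGFBP sum in the controls and 2.69%, 2.20% and 2.70% in the cachectic samples. These shares restate the values above on another scale and were not tested.

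**Figure D4:**
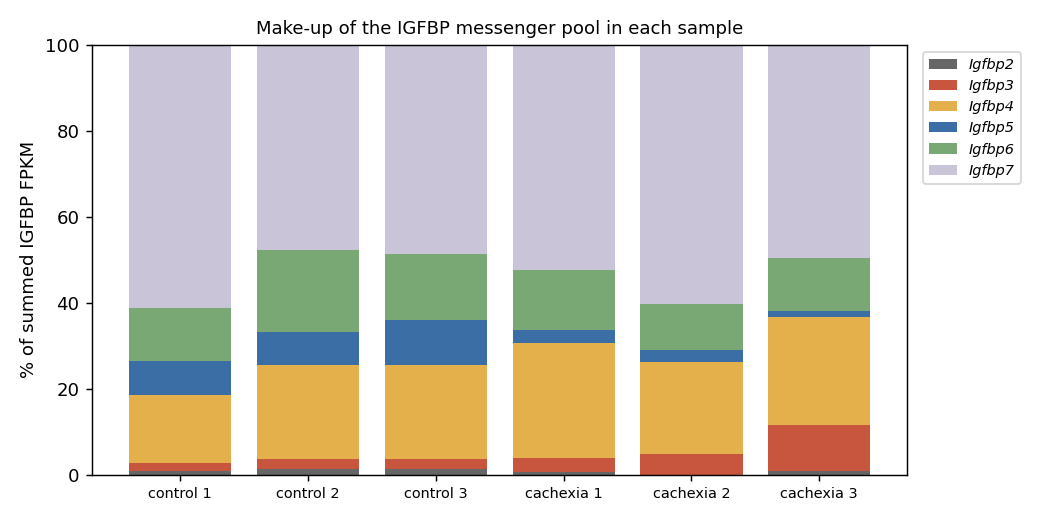
Share of each IGFBP gene in the summed IGFBP FPKM of each sample (stacked bars, percent). Igfbp7 makes up 47.7% to 61.2% of every bar, the Igfbp5 band is thinner in the 3 cachexia bars and the Igfbp3 band is thicker, most of all in cachexia replicate 3 (10.6%).

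The wider axis was read from 33 further genes, of which 25 were tested. There 5 were called higher, 4 lower and 16 were not called, again beside 9.0% and 8.63% of all tested genes. These genes, like the members, were chosen with earlier results of these data known. The counts beside these shares are thus a description and not a test. The median log2 fold change of the 25 was -0.20. The other 8 were too low to test. They include growth hormone itself (Gh, at most 0.972 CPM), Ghrh, Ghrl, Igfbp1 and the ghrelin receptor gene Ghsr, which had 0 counts in every sample.

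Among genes that control IGF binding, 1 of 6 tested was higher and 2 were lower. Stc1, which encodes stanniocalcin 1, an inhibitor of PAPP-A, had 2.50, 2.80 and 2.32 CPM in the controls and 6.40, 9.01 and 22.6 CPM in the cachectic samples. Like Igfbp3 it was highest in cachexia replicate 3, and without that sample its log2 fold change was 1.60 with an adjusted p of 0.0202 in edgeR's test. With all samples it changed by 2.31 on the log2 scale (SE 0.47, adjusted p 0.0166 in edgeR's test), and without control replicate 2 or 3 it was 2.39 or 2.25 with an adjusted p of 0.0548 or 0.0726 in edgeR's test. Pappa, which encodes PAPP-A itself, had 5.76, 3.95 and 5.26 CPM in the controls and 1.80, 1.59 and 1.70 CPM in the cachectic samples. Its log2 fold change was -1.55 (SE 0.30, adjusted p 0.0139 in edgeR's test), and without control replicate 3 the adjusted p was 0.0664 in edgeR's test. Htra1, which encodes a protease that cuts IGFBPs, was lower, at 249 ± 24.7 CPM (SD, n = 3) in the controls and 99.1 ± 26.8 CPM (SD, n = 3) in the cachectic samples. Its fitted log2 change was -1.33 (SE 0.21, adjusted p 0.00748 in edgeR's test). Igfals, which encodes the acid-labile subunit that joins IGFBP3 and IGF1 in blood, had 70.8, 64.7 and 79.9 CPM in the controls and 29.2, 40.4 and 3.07 CPM in the cachectic samples. The groups did not overlap, but its log2 fold change of -1.56 did not pass (SE 0.68, adjusted p 0.148 in edgeR's test). Without cachexia replicate 3, the sample with 3.07 CPM, it was -1.04 with an adjusted p of 0.0176 in edgeR's test. Stc2, the other stanniocalcin gene listed, was above Stc1 in every sample and moved the other way. It had 34.2, 31.1 and 32.7 CPM in the controls and 19.1, 14.2 and 28.7 CPM in the cachectic samples. Its groups did not overlap, but its log2 fold change of -0.66 did not pass (adjusted p 0.0961 in edgeR's test). Without cachexia replicate 3 it was -0.97 with an adjusted p of 0.0182 in edgeR's test.

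Of the 2 receptors tested beside the members, the insulin receptor gene Insr was higher, at 135, 202 and 211 CPM in the controls and 398, 445 and 409 CPM in the cachectic samples. It had a log2 fold change of 1.19 (SE 0.20, adjusted p 0.00867 in edgeR's test), and it passed in all 17 other settings. Igf2r, which encodes a receptor that clears IGF2, gave 0.52 (SE 0.20, adjusted p 0.115 in edgeR's test), and without cachexia replicate 3 it was 0.70 with an adjusted p of 0.0337 in edgeR's test.

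Of 8 genes in growth hormone receptor signaling, 1 was called. Socs3, a suppressor of cytokine signaling that many cytokines induce, was higher, at 52.0 ± 13.5 CPM (SD, n = 3) in the controls and 112 ± 20.5 CPM (SD, n = 3) in the cachectic samples. Its fitted log2 change was 1.10 (SE 0.22, adjusted p 0.0141 in edgeR's test), and without control replicate 3 it was 0.96 with an adjusted p of 0.0651 in edgeR's test. The STAT5 targets Cish and Socs2 were not called. Cish had 29.0, 16.0 and 27.5 CPM in the controls and 16.5, 18.1 and 34.6 CPM in the cachectic samples. Socs2 had a log2 fold change of 0.68 (adjusted p 0.0887 in edgeR's test), and without control replicate 1 it was 0.91 with an adjusted p of 0.0481 in edgeR's test. Stat5a had 57.3, 74.1 and 61.8 CPM in the controls and 54.1, 40.7 and 30.6 CPM in the cachectic samples, so its groups did not overlap. Its log2 fold change was -0.62 (adjusted p 0.0813 in edgeR's test). With DESeq2 on all samples Stat5a was called lower (-0.63, adjusted p 0.0451 in DESeq2's test). Without cachexia replicate 1 its log2 fold change was -0.85 with an adjusted p of 0.0379 in edgeR's test. Jak2 (0.23) and Stat5b (0.26) were not called in any setting. Ptpn6, whose groups also did not overlap, had -0.49 (adjusted p 0.0729 in edgeR's test). Without cachexia replicate 2 it was -0.62 with an adjusted p of 0.0472 in edgeR's test.

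Downstream of the insulin and IGF1 receptors, 2 of 8 genes were higher and 2 lower. Pik3r1, which encodes a regulatory subunit of phosphoinositide 3-kinase, had 741, 634 and 833 CPM in the controls and 188, 219 and 136 CPM in the cachectic samples. On the log2 scale it changed by -2.02 (SE 0.22, adjusted p 0.0025 in edgeR's test). Grb14, an adaptor that inhibits the insulin receptor, had 31.6, 19.8 and 24.0 CPM in the controls and 3.61, 1.29 and 3.86 CPM in the cachectic samples. Its log2 fold change was -3.11 (SE 0.39, adjusted p 0.00356 in edgeR's test). Grb10, an adaptor of the same family, gave 0.82 on the log2 scale and was called higher (SE 0.16, adjusted p 0.0137 in edgeR's test). Without control replicate 3 the adjusted p was 0.0773 in edgeR's test. Irs2, a docking protein of both receptors, had 45.3, 96.5 and 69.8 CPM in the controls and 177, 128 and 261 CPM in the cachectic samples. It had a log2 fold change of 1.42 (SE 0.33, adjusted p 0.0259 in edgeR's test). Without control replicate 1 or 3, or cachexia replicate 1 or 3, it was 1.18, 1.41, 1.46 or 1.12 with an adjusted p of 0.0518, 0.0957, 0.0573 or 0.0603 in edgeR's test. Irs1 (-0.20), Akt1 (0.18), Akt2 (0.07) and Shc1 (-0.27) were not called.

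**Figure D5:**
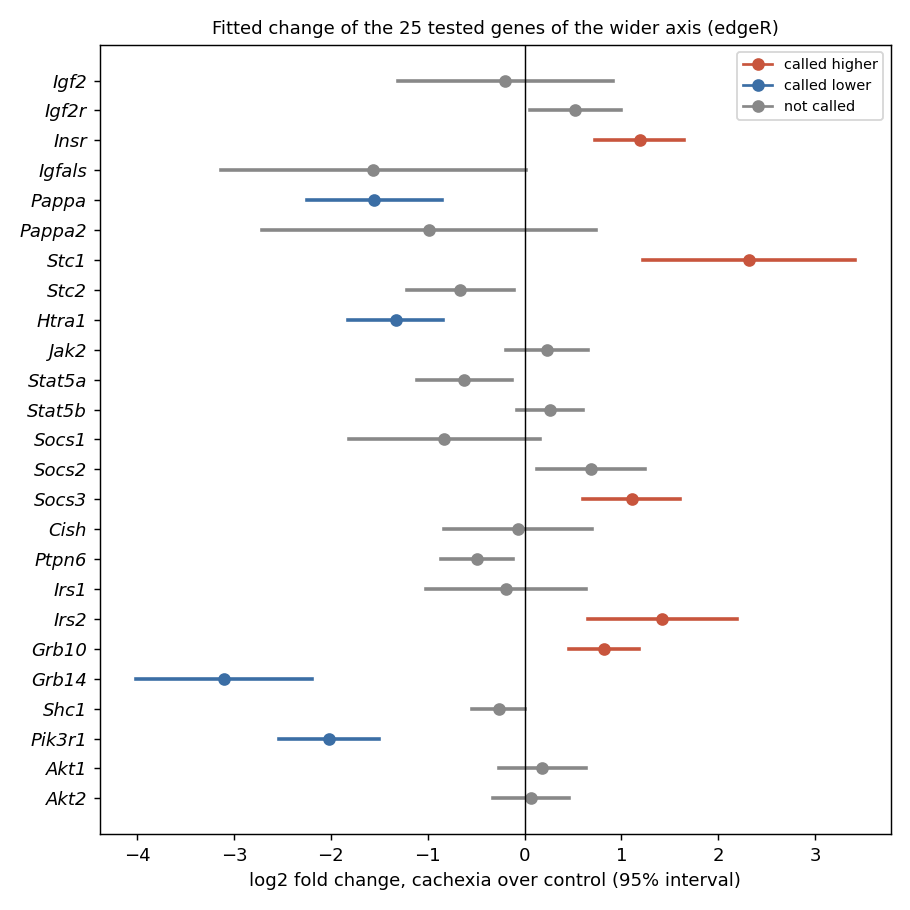
Fitted log2 fold change of cachexia over control for the 25 tested genes of the wider axis, with points for the estimate and lines for the 95% interval. Stc1 (2.31) lies farthest to the right, and Grb14 (-3.11) and Pik3r1 (-2.02) lie farthest to the left.

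Markers of cell types that the tissue holds were counted here and in the next paragraph. Beside them, 9.0% of all tested genes were called higher and 8.63% lower. Of 10 markers of fat progenitors and fibroblasts 5 were lower and 1 was higher, and their summed level was 5655 to 6376 CPM in the controls and 2558 to 3540 CPM in the cachectic samples. The largest falls in CPM within that sum were those of Col3a1 (control mean 2469, cachexia mean 272 CPM) and Col1a1 (631 and 103 CPM). The marker called higher was Ly6a (110 and 216 CPM). Pdgfra (-0.75), Dpp4 (-0.12), Dcn (-0.06) and Cd34 (-0.03) in that list were not called. Of 6 endothelial markers 3 were higher, with a summed level of 1293 to 1385 CPM against 1895 to 2709 CPM. Of 6 mural markers 1 was lower, with a summed level of 1037 to 1327 CPM against 525 to 852 CPM. The marker called lower was Rgs5 (control mean 516, cachexia mean 273 CPM). Acta2 (-0.81), Cspg4 (-0.75), Myh11 (-0.53), Notch3 (-0.41) and Pdgfrb (0.10) were not called. All 5 neutrophil markers tested were higher, with a summed level of 7.41 to 13.6 CPM against 188 to 576 CPM, and cachexia replicate 3, the sample with the highest Igfbp3, also had the highest neutrophil sum. S100a8 and S100a9 made up 91.1% of the sum in that sample, against 71.7% and 67.5% in cachexia replicates 1 and 2. Csf3r was lowest there among the cachectic samples (30.4, 27.5 and 12.3 CPM), and Cxcr2 was nearly level (10.4, 11.0 and 11.1 CPM). All 5 erythroid markers were higher, with 229 to 417 CPM against 1274 to 2649 CPM. The part of these cell types in the values of Igf1, Igfbp3 and Igfbp5 was not tested.

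Of 8 adipocyte markers 2 were higher (Cidec and Pnpla2) and 1 was lower (Lep), and the summed level overlapped, at 15620 to 20568 CPM in the controls and 15079 to 27178 CPM in the cachectic samples. Cachexia replicate 2, the lowest sample for Ghr, had the lowest adipocyte sum and the lowest mesothelial sum (155 CPM against 271 to 361 CPM in the controls). Its adipocyte sum of 15079 CPM was close to the lowest control, and the markers differed. Fabp4 (4914 CPM), Plin1 (632), Lipe (992) and Lep (9.80) were below every control there. Cidec (4274 CPM) and Pnpla2 (2439) were above every control, and Adipoq and Slc2a4 lay within the range of the controls. Of 6 macrophage markers 1 was higher and 1 lower, with sums of 535 to 703 CPM against 369 to 635 CPM. Of 6 mesothelial and 6 lymphocyte markers 0 were called, nor was the 1 skeletal muscle marker tested. The 6 epididymis markers were too low to test, with sums of at most 4.2 CPM.

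The genes whose levels followed those of Ghr, Igf1 and Igf1r most closely over the 6 samples were found by the root mean square (RMS) difference of their log2 CPM profiles, each centred on its own mean. For Ghr they were Pstpip2 (0.073), Upk3b (0.085) and Spaca1 (0.095). Upk3b, a mesothelial marker, had 106, 159 and 151 CPM in the controls and 109, 50.7 and 134 CPM in the cachectic samples, with the lowest value in cachexia replicate 2 as for Ghr. For Igf1 they were Pmvk (0.060), which encodes an enzyme of the mevalonate pathway, Mturn (0.073) and 1810055G02Rik (0.096). Pmvk had 58.3, 55.5 and 62.9 CPM in the controls and 26.8, 17.6 and 33.7 CPM in the cachectic samples. For Igf1r they were Zfp286 (0.038), 2010111I01Rik (0.057) and Gm20604 (0.076). Zfp286 and Gm20604, and Spaca1 among the genes listed for Ghr, had under 4 CPM in every sample. Pstpip2 had 1.53 to 6.23 CPM. With 6 samples such likeness is a description alone.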

How the data were processed

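RNA-seq of eWAT from 3 cachectic and 3 control mice was analyzed, and groups were taken from the sample labels. The authors cleaned the reads, used Hisat2 for alignment and featureCounts (1.5.0-p3 per the submitters' processing notes) for counting. The raw counts per gene and the FPKM values, which the authors made from count and gene length, were used as deposited. The authors' table of their own comparison, made with DESeq2 (1.16.1 per the notes), holds fold changes, p-values and normalized values and was not used. The labels list mm9, but 99.9% of gene IDs are in GENCODE M21 (GRCm38), and 98.3% of these have the same start and end there, so coordinates are given as GRCm38. Use of strand in counting is not given in the sources used here.

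The analysis used edgeR 4.0.16 under R 4.3.3, with filterByExpr, TMM factors and the quasi-likelihood test without covariates. P-values were adjusted by Benjamini-Hochberg over 16003 genes and called at 0.05. Permutation tests used log2(CPM + 0.5). The SE is the log2 fold change divided by the square root of F. Depth was 14928766 to 18855546 counts per sample, and the biological coefficient of variation was 0.264. No 2 samples had counts that agreed within sampling noise. Other settings were RLE or upper quartile factors, library totals alone, genes unfiltered, a minimum of 10 counts per sample, DESeq2 1.42.0, limma-voom (limma 3.58.1), limma on log2(FPKM + 1) or log2(FPKM + 0.1), protein-coding genes alone, a replicate block and each sample left out. The scripts were tested on simulated data. The members, lists and motif were chosen with earlier results of these data known. Genes named are the 9 members, listed genes of the wider axis, marker lists and the 3 protein-coding genes most like Ghr, Igf1 and Igf1r.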

Additional observations from a re-analysis of the deposited data

How the results depend on the processing

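Of the 3 calls among the 9 genes, Igfbp5 held in all 17 other settings and Igf1 in 16, while Igfbp3 held in 11. Beside the samples left out, Igfbp3 lost its call with limma on log2(FPKM + 1) (1.5, adjusted p 0.0637) and log2(FPKM + 0.1) (1.54, adjusted p 0.0575). With the replicate block it was 1.54 with an adjusted p of 0.0551 in edgeR's test. The count of members called higher was thus 0 with each of those 3, and all genes called higher numbered 913 with the replicate block. Replicate numbers do not pair the samples (correlations of same-numbered deviations of -0.003, -0.011 and 0.0085), and the block left 2 members called lower and 5 and 4 wider axis genes called higher and lower. DESeq2 called 1955 of all genes higher and 1929 lower, and 5 and 5 wider axis genes. With 1 sample left out, members called higher ranged from 0 to 2 and lower from 1 to 2. All genes called higher then ranged from 382 to 1197 and lower from 446 to 1142. Wider axis genes called higher ranged from 1 to 5 and lower from 3 to 6. Leaving out control replicate 3 gave the fewest genes called over all tested genes. Every fit with 1 sample left out has the same number of samples, and the cause was not tested. Directions turned for genes near 0 that were not called when 1 sample was left out: Igfbp6 ranged from -0.25 to 0.083, Igf2 from -0.42 to 0.029, Irs1 from -0.53 to 0.13, Akt2 from -0.048 to 0.17 and Cish from -0.48 to 0.12. Igfbp2 rests on 19 counts in cachexia replicate 2, which limits its precision.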
